A study of Mus musculus with 2 samples.

Results

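Red cell barcodes were chosen by their globin counts: they were the cell barcodes in which the 4 adult globin genes, Hbb-bs, Hbb-bt, Hba-a1 and Hba-a2, together made up over 50% of the unique molecular identifiers (UMIs, the tags that count captured RNA molecules). All deposited barcodes were searched, with no minimum number of genes. The rule kept 522 of 9342 barcodes in control 1 (5.59%, 95% exact binomial interval 5.13 to 6.07%) and 683 of 7109 in control 2 (9.61%, 8.93 to 10.3%), 1205 of 16451 in all. These intervals cover counting error only. The rule used the globin counts, so the values of these 4 genes below are descriptions and carry no test.

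The study concerns mice with knockdown of muscarinic acetylcholine receptors, M1 in one model and M3 in another, and its single-cell suspensions came from control mice of genotype C57BL/6. The 2 libraries carry M1 control (control 1) and M3 control (control 2) in their titles, and both came from the proximal small intestine. The labels give no agent, age or further allele. Epithelium was released with 20 mM EDTA for 60 min and TrypLE for 10 min, filtered at 30 µm and used at 80% viability or more, and no step for lysing red cells is described. The libraries were 10x Genomics Chromium 3' libraries, holding 54451793 UMIs in control 1 and 36139325 UMIs in control 2. The labels do not state whether each library is another animal. The p-values below thus concern only the difference between red cell barcodes and other barcodes within these 2 libraries. Each gene has 1 residual degree of freedom, and the spread is shared over genes. A small SE or p-value therefore does not show that the 2 libraries gave like values for that gene. The libraries shared 17 barcode sequences, none of them a red cell barcode in both and 3 of them a red cell barcode in either.

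Red cells carry oxygen on hemoglobin, a tetramer of alpha and beta globin chains around heme. Mammalian red cells lose their nucleus before they enter the blood, and the youngest of them, the reticulocytes, still hold RNA, ribosomes and mitochondria, which they clear by autophagy, the ubiquitin system and RNA decay over the following days. What RNA is left in such a cell was transcribed before the nucleus was lost. In mice of the C57BL/6 type, both adult beta globin genes, Hbb-bs and Hbb-bt, are active and encode the beta chain of adult hemoglobin.

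The sequences of the globin genes set how well their counts can be told apart, since the library reads the 3' end of each RNA. In GENCODE M21 annotation of GRCm38, Hbb-bt lies at chr7:103812524-103813996 and Hbb-bs at chr7:103826534-103828096, both on the minus strand. Hba-a1 lies at chr11:32283511-32284465 and Hba-a2 at chr11:32296489-32297298, both on the plus strand. The coding sequences of Hbb-bt and Hbb-bs, 441 bases each, differed at 1 base, shown here in capitals within bases 397 to 437 of the coding sequence, 5' to 3'.
Hbb-bt: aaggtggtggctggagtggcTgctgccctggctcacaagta
Hbb-bs: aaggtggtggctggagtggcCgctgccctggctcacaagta
Their 3' untranslated regions were 69.4% identical over 134 aligned positions, so reads from the 3' end can separate Hbb-bt from Hbb-bs. Hba-a2 and Hba-a1 also differed at 1 of 426 coding bases. Their 3' untranslated regions had 0 mismatches and 16 gap positions over 90 aligned positions, so the split between Hba-a1 and Hba-a2 is uncertain and only their sum is used below.

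The 250 bases before the RefSeq start site are shown for both beta globin genes, one alpha globin gene and Alas2, which encodes the first enzyme of heme synthesis in red cells. They are read 5' to 3' on the gene's own strand, build GRCm38.p6, and capitals mark the letters GATAA, or TTATC where the match is on the other strand. This is the core of the motif bound by GATA factors, the transcription factors of the red cell lineage.
Hbb-bt, chr7:103813924-103814173, minus strand: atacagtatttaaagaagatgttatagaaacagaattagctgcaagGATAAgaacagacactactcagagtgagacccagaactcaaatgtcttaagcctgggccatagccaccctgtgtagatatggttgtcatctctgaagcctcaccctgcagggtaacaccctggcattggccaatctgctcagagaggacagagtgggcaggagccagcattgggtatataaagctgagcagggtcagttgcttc
Hbb-bs, chr7:103827929-103828178, minus strand: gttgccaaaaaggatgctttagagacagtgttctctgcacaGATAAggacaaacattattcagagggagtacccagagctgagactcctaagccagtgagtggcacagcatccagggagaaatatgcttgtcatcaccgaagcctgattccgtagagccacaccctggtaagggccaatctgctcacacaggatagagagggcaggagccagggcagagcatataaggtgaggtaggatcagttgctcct
Hba-a1, chr11:32283422-32283671, plus strand: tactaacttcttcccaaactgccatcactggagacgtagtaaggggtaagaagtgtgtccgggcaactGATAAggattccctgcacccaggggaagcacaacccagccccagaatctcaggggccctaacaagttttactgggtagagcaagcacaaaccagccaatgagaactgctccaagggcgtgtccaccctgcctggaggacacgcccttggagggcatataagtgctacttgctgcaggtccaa
Alas2, chrX:150547167-150547416, plus strand: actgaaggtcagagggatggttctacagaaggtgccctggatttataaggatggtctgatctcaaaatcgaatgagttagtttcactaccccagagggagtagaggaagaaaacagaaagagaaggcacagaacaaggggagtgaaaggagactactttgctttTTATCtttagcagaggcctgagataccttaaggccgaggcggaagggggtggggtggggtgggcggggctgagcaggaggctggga
Each of the 4 held 1 match, as did Hba-a2. The same letters were found on either strand in 22.58% of 32851 RefSeq mouse promoters of that length. No match was found in the windows of Bpgm, Mkrn1, Ube2l6, Gpx1 or Tent5c, which were also abundant in red cell barcodes. The Hbb-bt and Hbb-bs promoters were 68.4% identical when aligned.

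Red cell barcodes formed a group of their own by globin share. The share of UMIs in globin had a median of 95.1% in red cell barcodes and 0.0557% in other barcodes of control 1, and 94.1% against 0.178% in control 2. Over 90% of UMIs were globin in 384 red cell barcodes of control 1 and 499 of control 2. Few barcodes lay between: 13 in control 1 and 17 in control 2 had 25 to 50% globin. The 3 red cell barcodes nearest the threshold had 51.0 to 52.4% globin in control 1 and 56.3 to 59.5% in control 2. The 3 other barcodes nearest it had 48.9 to 49.7% and 45.6 to 45.7%.

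**Figure D1:**
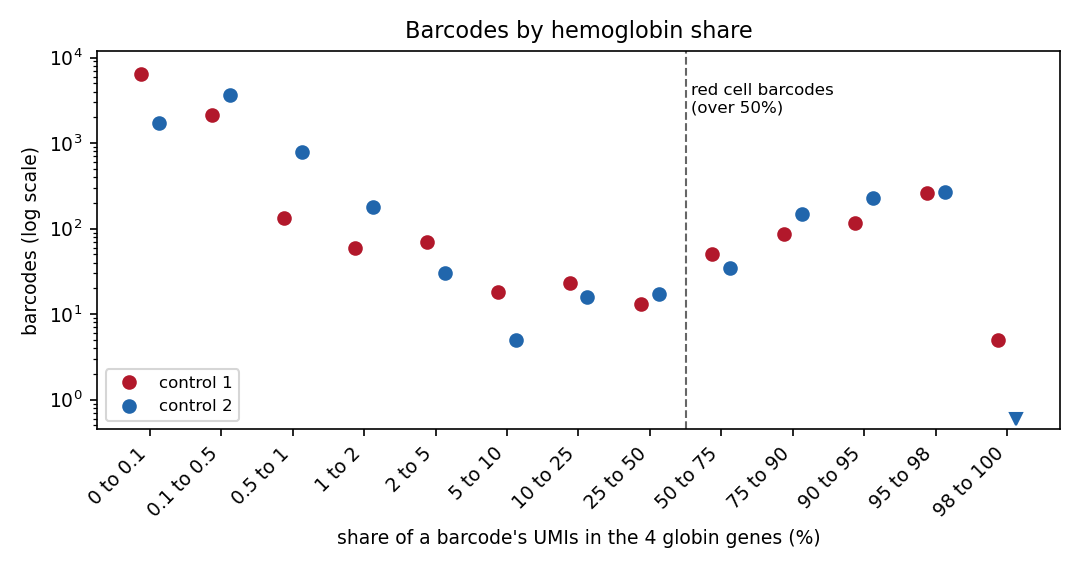
Number of barcodes (vertical, log scale; a triangle marks 0 barcodes) in each range of hemoglobin share of UMIs (horizontal, unequal ranges) in control 1 (red) and control 2 (blue), with the 50% rule as a dashed line. Barcodes of 25 to 50% globin numbered 13 and 17, between a large group under 1% and a group of 90 to 98%.

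The globin counts were high and the rest of the transcriptome was small. Total UMIs per red cell barcode had a median of 6091 in control 1 (lowest 508, highest 21092) and 5210 in control 2 (lowest 500, highest 23585). Without the globins, red cell barcodes had a median of 246 UMIs in control 1 and 284 in control 2, against 3043 and 2304 in other barcodes. Genes detected had a median of 140 and 145 in red cell barcodes, against 1165 and 980 in other barcodes. Red cell barcodes held 6.61% of all UMIs of control 1 and 13.0% of control 2, and 97.1% and 97.7% of all globin UMIs.

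Most red cell barcodes had under 500 genes, 488 in control 1 and 661 in control 2. They made up 28.4% and 31.6% of all barcodes with so few genes, so a filter at 500 genes would remove them. The other 34 and 22 red cell barcodes had a median of 1203 and 879 genes and held 43.4% and 19.5% of the non-globin UMIs of the class. Their median count of 20 enterocyte marker genes was 76.5 and 94.5 UMIs, against 6 and 4 UMIs in red cell barcodes under 500 genes. Whether these are red cells captured with a second cell was not tested, and no doublet caller was run. They weigh most on sums of control 1: without them, the level there over that in other barcodes was 145 in place of 89.9 for the heme synthesis list, 18.3 in place of 11.7 for the membrane list, 20.7 in place of 13.2 for the enzyme list and 24.9 in place of 15.9 for the late maturation list. In control 2 none of these moved by over 1.5 times.

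T cell barcodes serve as cells that should make neither globin nor epithelial RNA. They were chosen after the data were seen, as other barcodes under 5% globin with at least 500 genes and at least 5 UMIs summed over Cd3d, Cd3e, Cd3g, Trac, Trbc2 and Trdc, genes of the T cell receptor complex. They numbered 2214 in control 1 and 1172 in control 2. No upper limit on depth was set, and the deepest held 306942 UMIs in control 1 and 615784 in control 2. Sums over T cell barcodes can thus rest in part on a few barcodes.

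Beta globin RNA exceeded alpha globin RNA in UMIs. Hbb-bs held 51.0% of globin UMIs of red cell barcodes in control 1 and 49.0% in control 2, and Hbb-bt 8.60% and 8.13%. The 2 alpha genes together held 40.3% and 42.9%. The embryonic globin genes Hbb-bh1, Hbb-bh2, Hbb-y and Hba-x had 0 UMIs in red cell barcodes of both libraries. The theta globin genes Hbq1a and Hbq1b, alpha-like genes of little known use, were present at a low level. Hbq1b had 29 and 69 UMIs in red cell barcodes, against 1 and 0 in other barcodes, and Hbq1a had 73 and 101 UMIs in red cell barcodes, against 1 and 5 in other barcodes.

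The share of beta globin that came from Hbb-bt differed widely among red cell barcodes. It had a median of 10.9% in control 1, with a lowest value of 0% and a highest of 29.3%, and a median of 8.94% in control 2, with 0% and 25.3%. Its SD over barcodes was 8.18 percentage points in control 1 and 7.31 in control 2, against 1.05 and 1.04 if each barcode drew its UMIs from the same mixture. The values made 2 heaps in both libraries, with 190 and 262 barcodes under 5% and 200 and 219 at 15% or more. Between the heaps, 22 and 24 barcodes had 8 to 10%, and 24 and 35 had 10 to 12%. These ranges were set after the values were seen and mark parts of a continuous scale, not cell types. Near the lower limit, 69 and 119 barcodes had 2 to 5% and 38 and 69 had 5 to 8%, and near the upper one 48 and 74 had 12 to 15% and 120 and 161 had 15 to 20%.

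**Figure D2:**
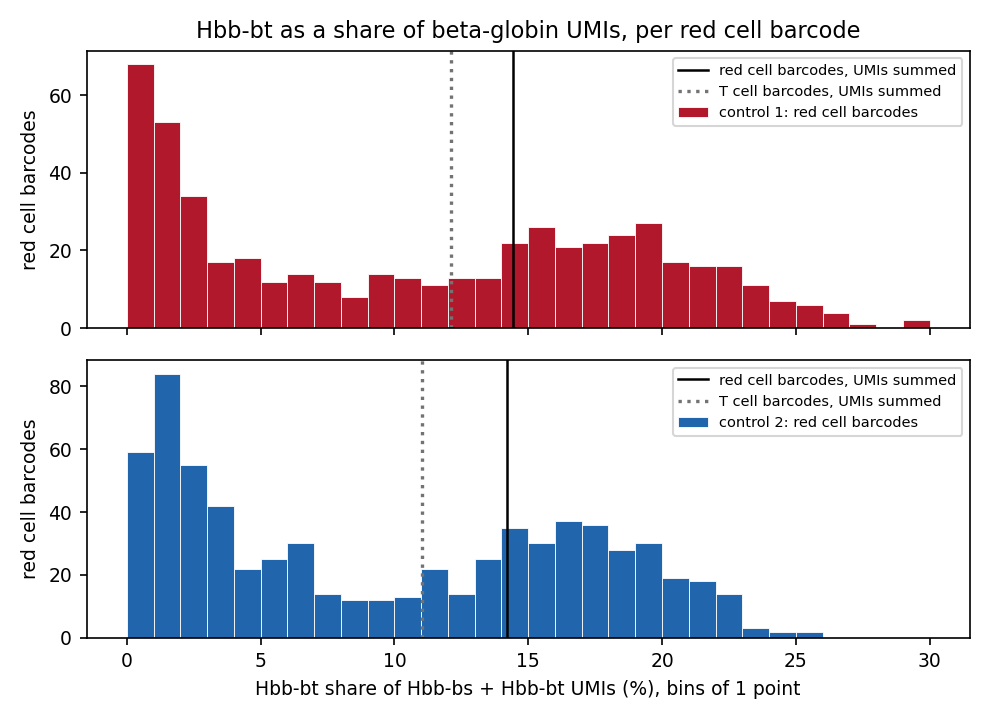
Number of red cell barcodes (vertical) by the share of their Hbb-bs and Hbb-bt UMIs that came from Hbb-bt (horizontal, in bins of 1 percentage point), in control 1 above and control 2 below. Barcodes heap under 5% and again from 14 to 20%; the solid line is the share over all red cell barcodes summed (14.4% and 14.2%) and the dotted line that of T cell barcodes (12.1% and 11.0%).

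Barcodes with more UMIs had a larger Hbb-bt share. In control 1 its Spearman correlation with total UMIs over 522 barcodes was 0.55, and in control 2 over 683 barcodes it was 0.74, barcodes of a library sharing that library. Among 4 equal groups by depth, the red cell barcodes with fewest UMIs had an Hbb-bt share of 7.21% in control 1 and 3.45% in control 2. The next groups had 5.49% and then 12.2% in control 1, and 8.19% and then 10.8% in control 2. Those with most UMIs had 18.8% and 18.1%. The share thus rose from group to group in control 2, while in control 1 the second group was below the first. The alpha globin share also varied beyond counting error, with an SD of 6.90 and 7.89 percentage points against 1.08 and 1.00 from counting. Its middle 50% of barcodes lay between 37.4 and 43.0% in control 1 and between 40.9 and 48.1% in control 2.

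The rest of the red cell transcripts moved with the Hbb-bt share at similar depth. To hold depth near constant, red cell barcodes of 5000 to 10000 UMIs and under 500 genes were taken, 130 in control 1 and 152 in control 2. Within them, the Spearman correlation of the Hbb-bt share with the UMIs of 90 red cell genes per globin UMI was 0.71 in control 1 and 0.76 in control 2, a description over barcodes that share a library. In these barcodes, Bpgm had 1165 UMIs per 1000000 globin UMIs at an Hbb-bt share of 15% or more and 328 at a share under 5% in control 1. In control 2 it had 1230 and 160.5. Gpx1, whose enzyme removes peroxides, had 323 and 10.6 in control 1 and 584 and 8.02 in control 2. Mkrn1, a ubiquitin ligase, had 1108 and 68.8 in control 1 and 1051 and 120.4 in control 2. The exact Poisson intervals given for these ranges cover counting error of pooled UMIs only, not the spread among barcodes. Bnip3l, a receptor for removal of mitochondria, had 477 (95% interval 387 to 580) at the high share in control 1, against an interval of 52.4 to 144 at the low share, and 440.5 and 132 in control 2.

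Alas2, the enzyme that starts heme synthesis, varied less. It had 1146 UMIs per 1000000 globin UMIs (95% interval 1005 to 1301) at an Hbb-bt share of 15% or more and 910 (779 to 1057) under 5% in control 1. In control 2 it had 1156 (1021 to 1304) and 754 (650 to 870). Ribosomal protein genes were lower at the high share, with 3496 and 4705 UMIs per 1000000 globin UMIs in control 1 and 2861 and 3779 in control 2, and lowest in the range between, with 2747 and 2640. Slc4a1, an anion exchanger of the membrane, had too few UMIs in this window for an order. Over all depths, it had 55 and 111 UMIs in barcodes of high Hbb-bt share and 0 in those of low share in both libraries. There the share rose with total UMIs (Spearman correlation 0.55 and 0.74), so these raw counts do not separate share from depth. Total depth still differed inside the window in control 1, with a median of 8215 UMIs in the high range and 6031 in the low range, while in control 2 it was 5991 and 6148. Enterocyte markers had no common order in the window, with 1011 and 1492 UMIs per 1000000 globin UMIs in control 1 and 1657 and 738 in control 2. The part of depth or free RNA in this pattern was not tested.

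**Figure D3:**
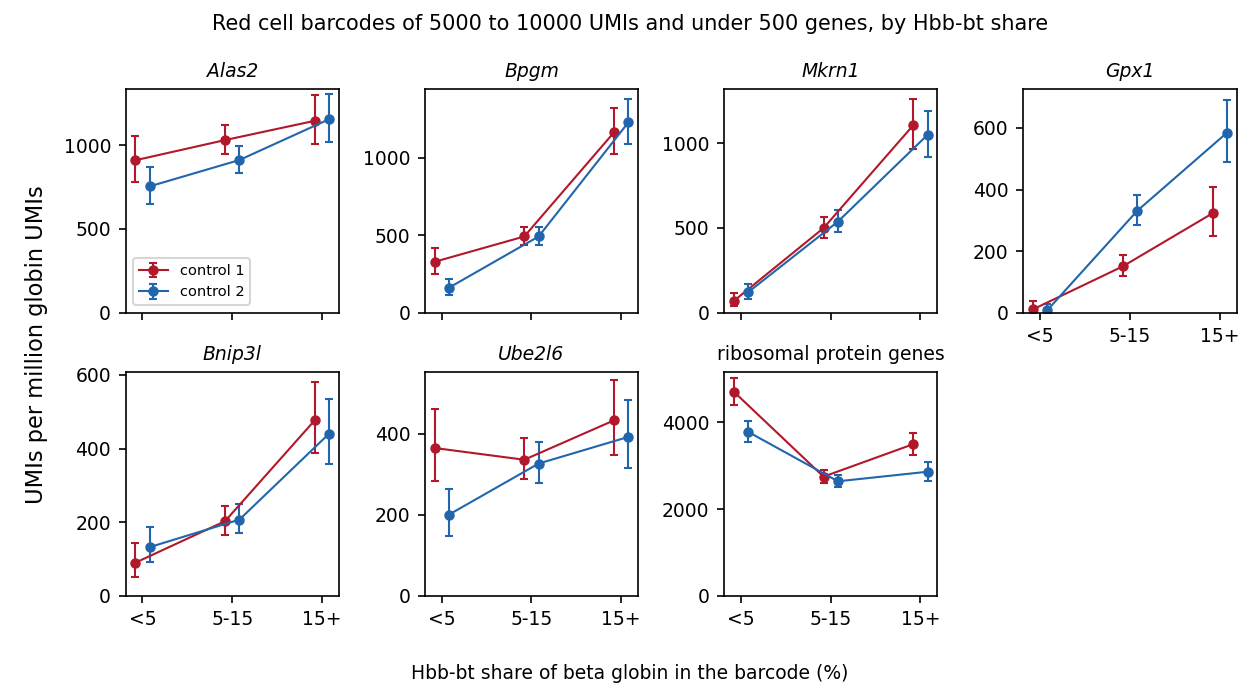
UMIs per 1000000 globin UMIs (vertical, each panel from 0) of 6 genes and of the ribosomal protein genes, in red cell barcodes of 5000 to 10000 UMIs and under 500 genes, by Hbb-bt share of beta globin (horizontal), with 95% exact Poisson intervals as bars; control 1 in red, control 2 in blue. Bpgm, Mkrn1, Gpx1 and Bnip3l are highest at a share of 15% or more in both libraries, while Alas2 and Ube2l6 change less.

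For the rest of the transcripts, the non-globin UMIs of red cell barcodes were summed per library, 259204 in control 1 and 298303 in control 2, and compared with the sums over all other barcodes, 50750245 and 31346466. Genes were tested by quasi-likelihood in edgeR with the library as a block and Benjamini-Hochberg adjustment. Values are counts per 1000000 non-globin UMIs (CPM), and fold changes are log2 of red cell over other barcodes ± SE. The fold changes also use scaling factors (TMM), which the CPM do not. These factors were 0.934 and 0.747 for red cell sums and 1.21 and 1.18 for the others. A fold change is thus larger than the ratio of the CPM beside it. Of 14182 genes tested other than the 4 globins, 334 were higher (2.36%) and 227 lower (1.6%) at an adjusted p under 0.05, and the median log2 fold change was -0.24. The depth of red cell sums is small: a count of 3 corresponds to 11.6 CPM in control 1 and 10.1 in control 2. The count of higher genes was 401 with red cell barcodes under 500 genes only, and the count of lower genes 137. Without the library as a block, 224 were higher and 7 lower, and DESeq2 called 293 and 40, so the lower genes rest on the block and the tool.

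Red cell genes were drawn up in 6 lists of 94 genes; these were chosen with earlier results of these data known. Of their 82 genes tested, 54 were higher and 0 lower, with a median log2 fold change of 3.65 beside the median of -0.24 over all genes. Without the abundant ferritin and ubiquitin genes Fth1, Ftl1 and Ubb, the lists held 8.85% of non-globin UMIs of red cell barcodes in control 1 and 11.8% in control 2, against 0.425% and 0.374% in other barcodes. Without the red cell barcodes of 500 genes or more, the lists held 14.0% in control 1 and 13.6% in control 2, and in those over 90% globin 16.5% and 16.2%. Genes nearly absent outside red cell barcodes could enter the test only through the red cell sums, where they are high. Of the 82 list genes 12 did, and 10 of the 54, beside 247 of all 14182 genes tested. These counts are thus descriptions and not support.

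Heme synthesis was led by Alas2. Alas2 had 12797 and 14519 CPM in red cell barcodes of control 1 and control 2, against 1.87 and 3.13 in other barcodes (log2 fold change 12.98 ± 0.47, adjusted p = 2.96e-30). It was found in 75.7% and 80.8% of red cell barcodes and in 0.587% and 1.62% of T cell barcodes, which should lack it. Median depth was 6091 and 5210 UMIs in red cell barcodes and 5785 and 6171 in T cell barcodes. With each barcode thinned to 500 UMIs, the shares were 30.1% and 35.1% in red cell barcodes and 0% in T cell barcodes, where a count of 0 allows up to 0.136% and 0.256%. Fech, which places iron in the porphyrin ring in the last step, had 1694 and 2273 CPM, against 15.7 and 16.9 (7.43 ± 0.30, adjusted p = 2.1e-28). Of 8 genes of the pathway tested, 4 were higher and 0 lower, with a median of 1.54. Urod, an enzyme of the middle steps, had 21 and 39 UMIs in red cell barcodes, 81.0 and 131 CPM, against 26.2 and 19.6 CPM in other barcodes (2.76 ± 0.31, edgeR adjusted p = 2.16e-10). Alad, Cpox and Ppox did not pass the test, with 8, 9 and 2 UMIs in red cell barcodes of control 1, and Uros had 0 UMIs in both libraries.

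Of 11 iron genes tested, 3 were higher and 0 lower, with a median of 0.04. Slc25a37, or mitoferrin 1, which carries iron into mitochondria, had 1389 and 2313 CPM in red cell barcodes, against 22.6 and 20.1 in other barcodes (6.92 ± 0.30, edgeR adjusted p = 1.47e-26). Glrx5, a glutaredoxin of iron-sulphur cluster assembly, had 1250 and 1284, against 116 and 82.6 (4.21 ± 0.25). Ftl1, the ferritin light chain, had 16122 and 15742, against 1420 and 1089 (edgeR adjusted p = 3.92e-15); 2 annotated pseudogene copies of Ftl1 make its count uncertain. Fth1, the heavy chain, had 19780 and 11009, against 15430 and 9590, and did not pass (adjusted p = 0.216). With red cell barcodes under 500 genes only, Fth1 passed, at 1.03 (adjusted p = 0.000578). Tfrc, the transferrin receptor through which red cell precursors take up iron, had 6 UMIs in red cell barcodes of each library and did not pass (adjusted p = 0.895).

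Of 18 membrane and skeleton genes tested, 11 were higher and 0 lower, with a median of 5.66. Several of them had few UMIs in any other barcode. Slc4a1, the band 3 anion exchanger, had 61 and 142 UMIs in red cell barcodes, against 0 and 2 in other barcodes. It entered the test only through the red cell sums, as did Tspan33. Tspan33, a tetraspanin, had 139 and 208 CPM, against 0.473 and 0.542 (8.89 ± 0.40). Kel, the blood group peptidase, had 11 and 26 UMIs, against 3 and 4. Epb41, the skeleton protein 4.1, was the most abundant, with 2361 and 3346 CPM, against 103 and 125 (5.15 ± 0.28). Aqp1, Cd47, Add1, Add2, Dmtn, Gypc and Slc14a1 did not pass.

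Of 12 red cell enzyme genes tested, 8 were higher and 0 lower, with a median of 3.84. Bpgm, which makes the bisphosphoglycerate that lowers the oxygen affinity of hemoglobin, had 13403 and 15913 CPM in red cell barcodes, against 54.0 and 48.1 in other barcodes (8.68 ± 0.41, edgeR adjusted p = 5.14e-25). The peroxide-removing enzymes Gpx1, Prdx2 and Cat were higher by 4.71 ± 0.38, 3.96 ± 0.27 and 2.27 ± 0.23. Car2, a carbonic anhydrase, had 1597 and 3017, against 140 and 140 (4.50 ± 0.28), and Blvrb, a biliverdin reductase, 1049 and 1418, against 48.9 and 33.6 (5.44 ± 0.28). Car1, Pklr, Sod1 and Glrx did not pass. The globin chaperone gene Ahsp was not analysed here.

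Genes high late in red cell maturation were nearly all higher: of 26 tested, 25 were higher and 0 lower, with a median of 4.69. Mkrn1 had 10910 and 13188 CPM in red cell barcodes, against 167 and 142 in other barcodes (6.80 ± 0.37, edgeR adjusted p = 2.38e-22). Ube2l6, a ubiquitin-conjugating enzyme that also acts on the ubiquitin-like protein ISG15, had 4741 and 5528, against 28.7 and 28.4 (edgeR adjusted p = 3.42e-27). Ube2o, which marks surplus ribosomal proteins for removal in reticulocytes, had 791 and 1140, against 5.32 and 6.86 (7.82 ± 0.28). Bnip3l had 4275 and 5712, against 102 and 86.6 (6.23 ± 0.32). The poly(A) polymerase gene Tent5c and the exonuclease gene Isg20 were higher by 7.90 ± 0.32 and 8.70 ± 0.34. Trim10 had 58 and 110 UMIs, against 4 and 16, while Trim58 had 3 and 2 UMIs and did not pass.

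**Figure D4:**
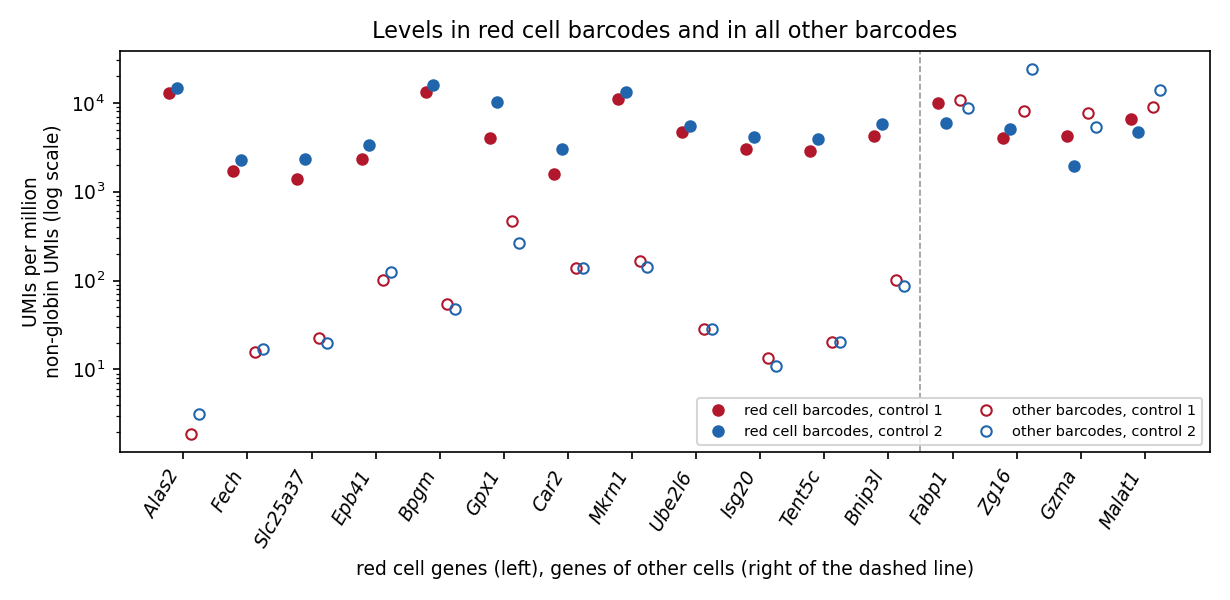
Counts per 1000000 non-globin UMIs (vertical, log scale) of 12 red cell genes and 4 genes of other cells, in red cell barcodes (filled) and in all other barcodes (open); control 1 in red, control 2 in blue. Each red cell gene is higher in red cell barcodes in both libraries, while Fabp1, Zg16, Gzma and Malat1 are at like or lower levels.

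Transcription factors of early red cell development were at or near 0. Gata1 and Klf1, main factors of the lineage, had 0 UMIs in red cell barcodes of both libraries, and were at 2 to 7 UMIs in other barcodes. Gfi1b, a repressor of the lineage, also had 0. Tal1, a partner of GATA1, had 3 and 2 UMIs in red cell barcodes, against 0 and 1 in other barcodes, and Nfe2, a factor that acts on globin genes, had 0 and 5, against 4 and 14. All 5 were under the filter on low counts and were not tested. Of 7 factors tested, 3 were higher and 0 lower, with a median of 0.96: Lmo2, a bridging protein of GATA1 complexes (6.31 ± 0.27), E2f2, a cell cycle factor (4.16 ± 0.39), and Foxo3, a factor of the oxidative stress response (0.96 ± 0.25, edgeR adjusted p = 0.0115, and 0.198 by DESeq2). Of 6 early progenitor genes, Cd34, Gata2 and Epor had 0 UMIs in red cell barcodes. Myc had 2 and 4, Myb 2 and 3 and Kit 0 and 4, and none of these 3 passed the test. Of 12 genes of dividing cells tested, only Ube2c was higher, with 779 and 949 CPM against 39.2 and 23.5 (5.35 ± 0.27), while Mki67 had 9 and 4 UMIs, Top2a 12 and 6, and Ccnb1 0 in both libraries. Malat1, a long RNA that stays in the nucleus, had a median of 0 and 1 UMIs in red cell barcodes under 500 genes, against 107 and 157 in T cell barcodes.

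Genes outside the lists that were highest by fold, 20 in number under a fixed rule, held further red cell genes. Tspo2, a membrane protein of red cell precursors, had 305 and 396 CPM, against 0.296 and 0.734 (10.01 ± 0.31). Slc48a1, a heme transporter, had 729 and 593, against 8.77 and 7.15 (6.89 ± 0.26). Isca1, of iron-sulphur cluster assembly, had 2353 and 1998, against 36.4 and 27.8 (6.61 ± 0.28). March2, a membrane-bound ubiquitin ligase, had 2299 and 2380, against 40.5 and 34.8 (6.48 ± 0.29). Apol11b, of the apolipoprotein L family, had 227 and 244 UMIs, against 7 and 6 (12.82 ± 0.36). Tspo2 and Apol11b entered the test only through the red cell sums, so their fold changes are descriptions and not support. Rsad2, known as an interferon-induced gene, had 1030 and 1626 CPM, against 7.59 and 8.52 (7.85 ± 0.29).

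Fold changes on this scale describe the make-up of the non-globin RNA. Scaled to all UMIs with the globins kept, the median over all genes was -4.66, a shift of -4.42, and 24 of the red cell list genes were still higher. On that scale Urod, Glrx5, Ftl1, Cat, Prdx2, Hagh, Ubb, E2f2 and Foxo3 had fold changes below 0. Alas2 overlaps Apex2, Prdx2 overlaps Junb and Mkrn1 overlaps Gm10244 in the annotation, and the labels do not state whether counting used strand.

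The remaining RNA under red cell barcodes held genes of other cells, at a low count per barcode that was close to, and mostly a little below, that in T cell barcodes, which should lack epithelial RNA. The 20 enterocyte marker genes had a median of 6 UMIs per red cell barcode under 500 genes in control 1 and 4 in control 2, against 8 and 7 in T cell barcodes. The 8 goblet cell markers had 2 and 4, against 3 and 7, and the 9 Paneth cell markers 1 and 1, against 1 and 2. These medians do not show the highest barcodes. Summed over T cell barcodes of control 2, Paneth markers had 32014 CPM, above the 18984 over all barcodes outside the red cell class. Any enterocyte marker was found in 97.1% of these red cell barcodes in both libraries, against 99.5% and 99.8% of T cell barcodes. Median depth was 5767 and 5082 UMIs in these red cell barcodes and 5785 and 6171 in T cell barcodes. The 12 T and NK cell markers had a median of 1 UMI in red cell barcodes of each library.

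Goblet medians were higher in control 2 than in control 1 in red cell barcodes and T cell barcodes alike. Enterocyte counts were higher in control 1 in both kinds. The gene Fabp1, a fatty acid binding protein of enterocytes, was in 69.3% and 63.0% of red cell barcodes, against 81.9% and 79.4% of T cell barcodes. At 500 UMIs per barcode it was in 21.5% and 16.7%, against 21.9% and 18.3%. At that depth the shares in red cell and T cell barcodes differed by under 2 percentage points in each library, while at full depth red cell barcodes had the lower share. Red cell barcodes of 500 genes or more are included in these shares.

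In proportion to non-globin UMIs, the lists of epithelial and lymphoid cells were lower in red cell barcodes than in other barcodes, and by unequal factors. The ratio was 0.753 in control 1 and 0.578 in control 2 for enterocyte genes, 0.467 and 0.231 for goblet genes, 0.433 and 0.198 for Paneth genes and 0.649 and 0.416 for T and NK cell genes. For B and plasma cell genes it was 0.102 and 0.367. Set against other barcodes with under 500 genes, the ratio was 1.29 and 0.548 for enterocyte genes and 2.47 and 1.84 for T and NK cell genes, so those directions depend on which barcodes are compared. Without the red cell barcodes of 500 genes or more, the ratio to all other barcodes was 0.263 and 0.346 for T and NK cell genes, 0.748 and 0.277 for goblet genes and 0.744 and 0.231 for Paneth genes. The Paneth value of control 1 rests on a single red cell barcode, which held 1314 of the 1721 Paneth UMIs of those under 500 genes. In red cell barcodes over 90% globin, the Paneth ratio was 0.170 in control 1 and 0.210 in control 2. Of 20 enterocyte genes tested, 4 were lower and 0 higher (median -0.56), and of 8 goblet genes 6 were lower (median -1.41). Of 9 Paneth genes 6 were lower (median -1.26), and of 12 T and NK cell genes 1 (median -0.26). Over all 14182 genes tested 1.6% were lower and the median was -0.24, close to that of the T and NK cell genes. Zg16, a goblet cell lectin, had 4039 and 5119 CPM in red cell barcodes, against 8008 and 24006 (-1.09 ± 0.31, edgeR adjusted p = 0.0255), and did not pass with red cell barcodes under 500 genes only (-0.25, adjusted p = 0.949). Defa24, a Paneth cell defensin, had 3056 and 2058, against 7434 and 10374 (-1.29 ± 0.28), and likewise did not pass there (-0.41, adjusted p = 0.563), but passed with those over 90% globin (-1.51, edgeR adjusted p = 2.49e-06). Fabp1 had 9973 and 5890, against 10630 and 8770, and did not pass.

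Part of the hormone and antibody genes were lower. Of 7 enteroendocrine genes tested, 4 were lower and 0 higher (median -2.65), and of 7 B and plasma cell genes 3 were lower and 0 higher (median -0.61). Beside these, 1.6% of all genes tested were lower, with a median of -0.24. Gip, an incretin hormone gene, had 347 and 70.4 CPM in red cell barcodes, against 176 and 329 in other barcodes, opposite orders in the 2 libraries, and did not pass (0.15 ± 0.31, edgeR adjusted p = 0.929). With red cell barcodes under 500 genes only it passed as higher (0.99, edgeR adjusted p = 0.000434). In control 2, however, all 7 enteroendocrine genes together had 225 CPM in those barcodes, below the 329 of Gip alone in other barcodes. That call thus does not describe control 2. The enteroendocrine ratio was 0.323 in control 1 and 0.144 in control 2, and 0.485 and 0.172 without the red cell barcodes of 500 genes or more. Sct, or secretin, had 11 and 10 UMIs in red cell barcodes, 42.4 and 33.5 CPM, against 513 and 341 (-2.97 ± 0.31, edgeR adjusted p = 2.69e-11). Cck, or cholecystokinin, had 23.1 and 53.6, against 381 and 488 (-2.96 ± 0.31). Set against other barcodes with under 500 genes, neither passed (edgeR adjusted p = 0.0808 for Sct and 0.463 for Cck). Ghrl, or ghrelin, had 1 UMI in each library, against 439 and 54.2 CPM in other barcodes. Igkc, the antibody kappa chain, had 174 and 436, against 2237 and 1478 (-2.10 ± 0.30), and Igkc and Ghrl did not pass without the block (adjusted p = 0.171 and 0.136). The lowest 7 genes by fold, 0610040J01Rik, Neo1, Tox3, B4galnt3, Areg, Ica1 and Cacna2d1, had 0 UMIs in red cell barcodes of both libraries and 15.3 to 36.0 CPM in other barcodes, against a floor of 11.6 and 10.1 that 3 counts give in red cell barcodes. None of these 7 passed by DESeq2.

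**Figure D5:**
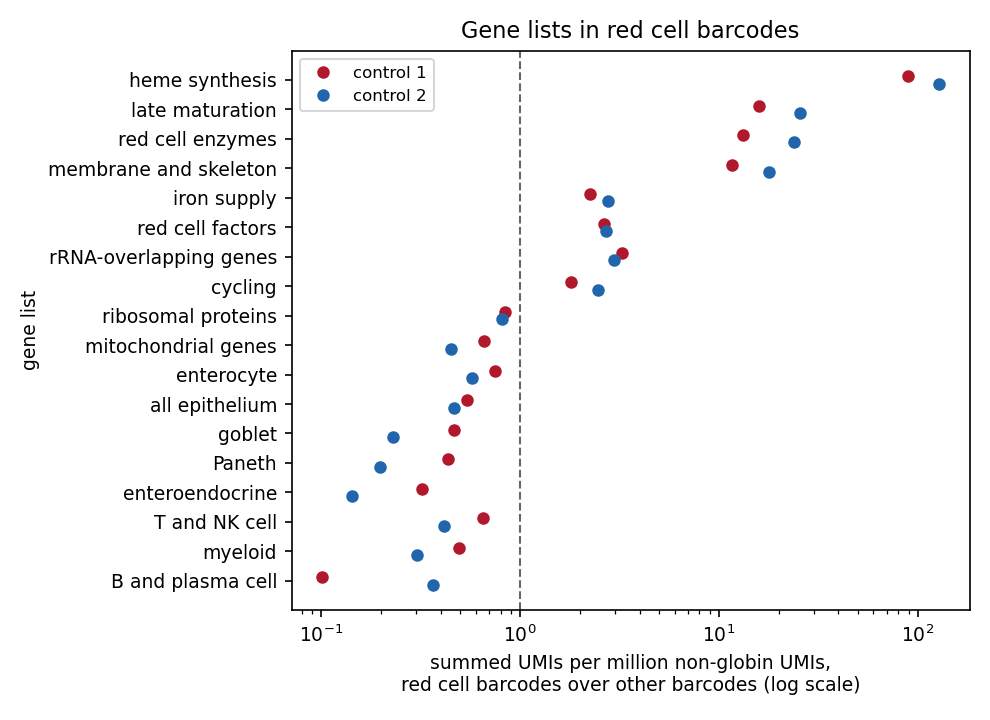
Ratio of summed counts per 1000000 non-globin UMIs in red cell barcodes to that in other barcodes (horizontal, log scale, dashed line at 1) for 18 gene lists (vertical), control 1 in red and control 2 in blue. Red cell lists lie right of 1, with heme synthesis at 89.9 and 128, and lists of epithelial and immune cells left of 1, down to 0.102.

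Apart from both kinds of gene, 7 genes known to collect reads of ribosomal RNA took a large part of the non-globin UMIs. Gm42418, AY036118, Cmss1, Camk1d, Gphn, Lars2 and Cdk8 together held 8.87% in control 1 and 22.5% in control 2 of red cell barcodes, against 2.71% and 7.53% of other barcodes. Without the red cell barcodes of 500 genes or more they held 13.3% and 24.5%. Gm42418 alone had 59235 and 161547 CPM, against 20686 and 59889 (1.99 ± 0.45, edgeR adjusted p = 0.00221), a direction that turned with globins kept in the totals. It did not pass by DESeq2 or without the block (adjusted p = 0.488). Per barcode, Gm42418 had a median of 23 and 52 UMIs in red cell barcodes under 500 genes, against 49 and 94 in T cell barcodes. Without these 7 genes, 361 genes were higher and 251 lower. Ribosomal protein genes had a median log2 fold change of -0.08 with 5 higher and 1 lower of 80, and the 13 mitochondrial genes had a median of -0.42 with 1 lower. Over all genes tested the median was -0.24, with 2.36% higher and 1.6% lower. Mitochondrial genes had a median of 5 UMIs per red cell barcode in both libraries, against 134 and 160 in T cell barcodes.

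Between libraries, most red cell genes were at close levels in red cell barcodes. Over 35 red cell list genes with at least 50 UMIs in each, the level per 1000000 globin UMIs in control 2 over that in control 1 had a median of 1.18 and was within 1.5-fold for 28. Alas2 had 987 in control 2 and 993 in control 1, and Bpgm 1081 and 1040. The highest ratio was that of Gpx1, at 2.26, and the lowest that of Fth1, at 0.488. With 1 library of each title there is no test of these differences.

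Globin RNA was also found outside the class. The 4 globins had a median of 2 UMIs per T cell barcode in control 1 and 6 in control 2, and at least 1 UMI in 89.3% and 99.5%. Over these barcodes Hbb-bt held 12.1% and 11.0% of beta globin, against 14.4% and 14.2% over red cell barcodes, in which it ran between 0 and 29.3% from barcode to barcode. Control 2, with the larger share of red cell barcodes, had the higher globin count in T cell barcodes.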

How the data were processed

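The deposited matrices hold UMI counts per gene and barcode, made by the authors with Cell Ranger 7.1.0, per the file headers. The submitters' processing notes name Cell Ranger 6.1 and 7.1.0 and builds GRCm38 and mm10. The barcode filter before deposit, the annotation release and the treatment of introns and strand are not given in the sources used here. Every deposited barcode had at least 500 UMIs, and 78 duplicated gene symbols were kept apart by identifier.

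Members and gene lists were chosen with earlier results of these data known. The T cell barcodes and the ranges of Hbb-bt share were chosen after the values were seen. Non-globin counts were summed per library for red cell and other barcodes and tested with edgeR 4.0.16 (limma 3.58.1, R 4.3.3), with TMM factors, edgeR's filter on low counts and the library as a block, since both sums of a library come from that library. This leaves 1 residual degree of freedom per gene before the spread is shared over genes. Alternatives were DESeq2 1.42.0, no block, no TMM factors, globins kept in the totals, no filter, other globin shares and other reference barcodes. No doublet caller was run. Named genes outside the lists were the 20 with the largest fold up and the 10 with the largest fold down under fixed minimum counts, and in the lists of other cells the 3 with most UMIs. The ribosomal RNA-overlapping genes and Malat1, Ube2c, Mki67, Top2a and Ccnb1 were named after their values were seen. Intervals are exact Poisson or binomial. Barcodes were thinned to 500 UMIs by random draws with a fixed seed (Python 3.11.15). The scripts were tested on simulated data. Promoter sequences are RefSeq's on GRCm38.p6, and globin coding sequences and coordinates are GENCODE M21's. Results on some red cell genes are not reported here.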

Additional observations from a re-analysis of the deposited data

How the results depend on the processing

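The count of higher genes stayed within 1.5 times of 334 in every alternative but one, and the count of lower genes did not. With the globins kept in the totals, 55 genes were higher and 13113 lower, and the median over all genes shifted by -4.42. Without TMM factors 1103 were lower and the median shifted by -0.52, and under DESeq2 40 were lower and it shifted by 0.12. With no replicate block 224 were higher and 7 lower. At a globin share over 25% 146 were lower, at one over 90% 115, and with red cell barcodes under 500 genes 137. At over 90%, the share of red cell barcodes was 4.11% in control 1 and 7.02% in control 2, the Hbb-bt share of beta globin 14.48% beside 14.32%, the enterocyte ratio 0.411 beside 0.666 and the T and NK cell ratio 0.261 beside 0.533. Against other barcodes with under 500 genes, these ratios were 0.917 and 2.16, and the goblet ratio was 0.648 beside 0.349. The cause of these differences was not tested.

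Of 58 named genes followed over the alternatives, kept globins turned the direction of 14 on the log2 scale. The median over all genes tested was then -4.66. Urod went to -1.67, Glrx5 to -0.19, Ftl1 to -0.20, Fth1 to -3.60 and Tfrc to -3.90. Cat went to -2.15, Prdx2 to -0.44, Hagh to -0.68, Ubb to -0.82 and E2f2 to -0.28. Foxo3 went to -3.45, Fabp1 to -4.21, Gip to -4.30 and Gm42418 to -2.41. Fabp1, not called, was -0.33 without TMM factors, -0.088 at over 25%, -0.37 at over 90%, -0.13 with red cell barcodes under 500 genes and -0.48 against other barcodes under 500 genes. Tfrc was -0.023 and Gip -0.38 without TMM factors, and Gip -0.29 at over 25%. Against other barcodes under 500 genes Fth1 was -0.40, Gzma 0.94 and Malat1 0.23. Leaving out a library leaves no residual degrees of freedom, so it gives a ratio with no test. Depth limits the lower genes most: 3 counts are 11.6 CPM in control 1 and 10.1 in control 2.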
